A study of Mus musculus with 6 samples.

Results

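The 10 genes described here act on lipid droplets, the cell's stores of neutral lipid: 2 droplet coat genes (Plin2, Plin3), 3 genes for enzymes that esterify sterol or diglyceride (Soat1, Dgat1, Dgat2), 3 for hydrolases of stored ester (Nceh1, Pnpla2, Lipe) and 2 for regulators of the lipase encoded by Pnpla2 (Abhd5, Hilpda). They were chosen by symbol for these roles, with no threshold on any measured value, but with earlier results of these data known. Each matched 1 of the 41388 Ensembl genes in the deposited GRCm38 tables. RNA was measured in foamy macrophages (live CD64+CD11b+ cells with high side scatter and strong staining by BODIPY, which marks neutral lipid) and in non-foamy macrophages (CD64+CD11b+ cells low in both), each as 3 libraries. Both were sorted from aortas stripped of adventitia and perivascular fat. All cells came from ApoE -/- mice of the C57BL/6 strain, for which the series design gives a Western diet of 28 weeks and 6 mice, so every library shares the loss of Apoe and the diet. Neither the sex and age of the mice nor how they were divided among libraries is given in the sources used here, so p-values rest on the spread among the libraries at hand, part or all of which may be technical.

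A droplet has a core of cholesteryl ester and triglyceride under a phospholipid layer, with perilipin proteins on its surface. In macrophages, ACAT1 (the product of Soat1) esterifies cholesterol that arrives with lipoproteins, and neutral cholesterol ester hydrolase frees it again, so that cholesterol can leave the cell. Triglyceride is completed by DGAT enzymes and broken down first by adipose triglyceride lipase (ATGL, the product of Pnpla2), with hormone-sensitive lipase acting next in fat cells.

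Total counts in genes per library were 18592421 to 24279802 (foamy) and 15628627 to 24619075 (non-foamy), and mitochondrial transcripts took 1.43 to 2.05% and 1.43 to 2.29% of them. The 10 genes together held 0.355 to 0.388% of the counts of foamy and 0.178 to 0.256% of those of non-foamy libraries. Most of these counts were of Plin2 alone, with 146208 over the foamy and 65717 over the non-foamy libraries. Of the gate's own genes, Fcgr1 (CD64) stood at a mean of 232 ± 44.8 CPM in foamy libraries, against 182 ± 52.9 CPM in non-foamy ones (SD, n = 3 each), and was not called (edgeR adjusted p = 0.502). Itgam (CD11b) stood at 77.8 ± 7.82 CPM and 142 ± 13.2 CPM and was lower in foamy libraries (difference -0.87 on the log2 scale, SE 0.19, edgeR adjusted p = 0.0229). All 8 macrophage markers checked were detected in all 6 libraries, but not at even levels. In foamy libraries 2 were called higher (Cd68 and Mertk) and 3 lower (Adgre1, Csf1r and Itgam), against 5.41% of all genes tested called in either direction. CPM, a count scaled to a fixed library size, is given here after edgeR's trimmed-mean (TMM) factor has adjusted each library's total; RPKM, where it is used, also divides by gene length and has no such factor. Markers of fat cells, which express Lipe and Dgat2 strongly, were near 0: the summed level of 6 was 0.0475 to 0.167 CPM over foamy libraries, against 0.197 to 0.650 CPM over non-foamy ones, and 5 of the 6 (Adipoq, Plin1, Cidec, Cfd and Retn) had 0 counts in all 3 foamy libraries. Markers of another cell type and of cell handling moved with the groups. The summed level of 6 monocyte markers was 8.50 to 19.6 CPM over foamy libraries, against 259 to 392 CPM over non-foamy ones, with 4 of 5 tested lower and Plac8 at 0 counts in 2 foamy libraries. Genes that enzymatic release of cells from tissue can induce were also mostly lower: 13 of 16 were called lower, against 2.9% of all genes tested. The sum of the 16 was 2273 to 2721 CPM, against 4988 to 7443 CPM. The heat shock gene Hsph1 was the 1 with a fitted log2 fold change above 0 (0.62, edgeR adjusted p = 0.150). The smallest p were those of the immediate early gene Nr4a1 (21.1 ± 5.03 against 167 ± 12.5 CPM) and the heat shock genes Hspa1a and Hspa1b, near-identical copies that may share reads. Their part in the results below was not tested. In bulk libraries, fewer cells that carry a transcript and less of it per cell cannot be told apart.

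The coat and esterification genes Plin2, Plin3 and Soat1 had about 2-fold more RNA in foamy than in non-foamy macrophages and passed the test. Of all 10 genes, 3 were called higher and 0 lower at an edgeR adjusted p under 0.05. The background is that edgeR called 2.5% of the 11303 genes tested higher and 2.9% lower. DESeq2 called 4 of the 10 higher and 1 lower, against 528 higher and 645 lower of all 11303. With limma-voom the counts were 3 and 0, against 279 and 259. At an unadjusted edgeR p under 0.05 there were 5 higher and 1 lower. The share of all genes at that threshold is not given here, so those 2 counts have no background. All 10 genes entered the test. The fitted log2 fold change (foamy over non-foamy) was above 0 for 8 and below 0 for Dgat1 and Lipe, with a median of 0.64, against -0.04 over all genes tested. In TMM-scaled CPM, the foamy values lay wholly above the non-foamy values for 4 of the genes, Plin2, Plin3, Soat1 and Nceh1. They lay wholly below them for 0. Without the TMM factor the groups of Nceh1 overlapped, and those of Plin2, Plin3 and Soat1 did not. Over all genes tested the groups did not overlap for 25.7%, with foamy values above for 12.4% and below for 13.3%. Scaling by total counts alone moved the median of all genes from -0.04 to -0.31, turned the split of all calls from 283 higher and 328 lower to 165 higher and 614 lower, and left only Plin2 called among the 10.

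**Figure D1:**
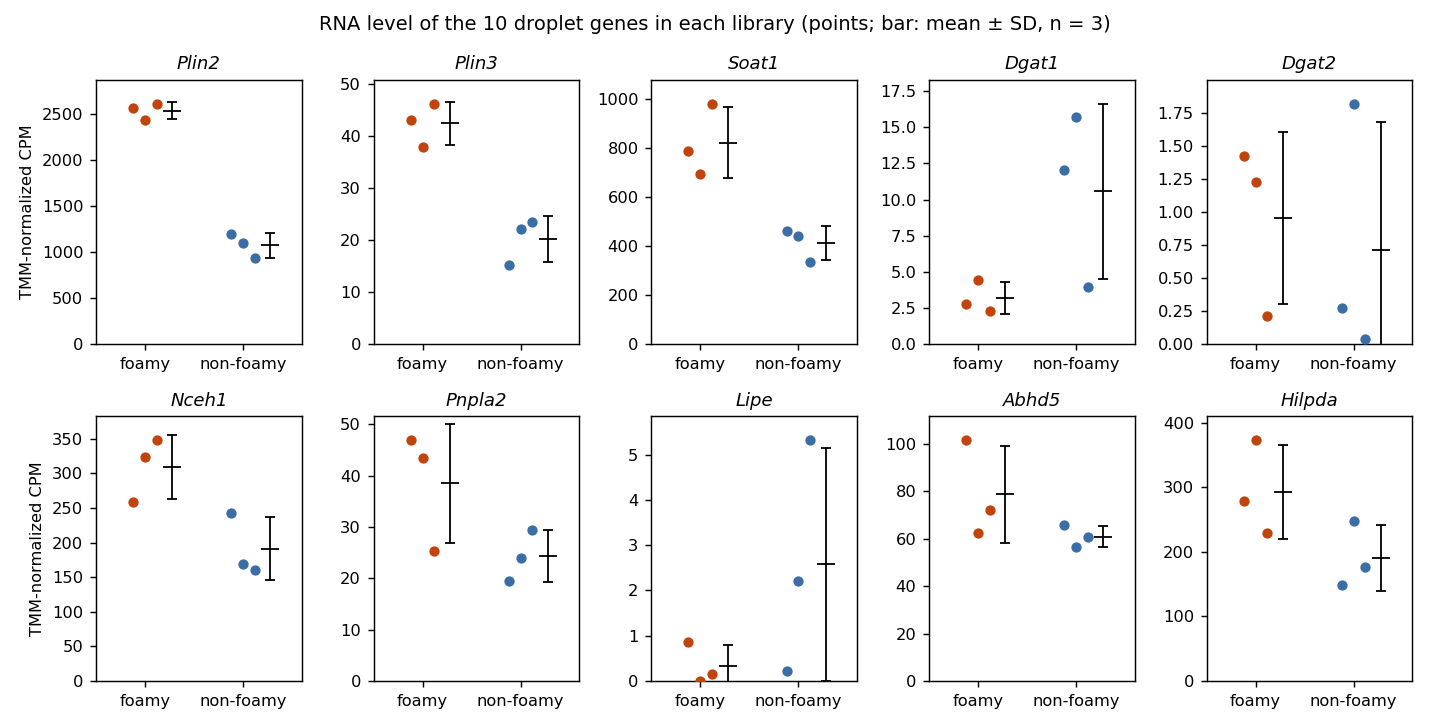
RNA level of each of the 10 genes on the TMM-normalized CPM scale, 1 point per library, foamy left and non-foamy right, with the mean and SD of 3 libraries beside the points (an SD that would pass below 0 is cut at the axis). The foamy points lie wholly above the non-foamy points for Plin2, Plin3, Soat1 and Nceh1; for Dgat1, 2 non-foamy libraries (12.1 and 15.7 CPM) stand above the other 4, and Lipe is highest in non-foamy replicate 3 (5.31 CPM).

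Plin2 encodes perilipin 2, the main droplet coat protein outside fat cells, which shields the droplet from lipases (ENSMUSG00000028494, chromosome 4, 86648386 to 86670060, minus strand). It was measured at 2563, 2439.6 and 2612 CPM in foamy replicates 1 to 3, against 1197, 1099 and 932 CPM in non-foamy replicates 1 to 3. The lowest foamy library was thus well above the highest non-foamy one, and the foamy libraries lay close together. The mean was 2538 ± 88.8 CPM (foamy) and 1076 ± 134 CPM (non-foamy), a 2.36-fold difference (log2 fold change 1.24, SE 0.17, edgeR adjusted p = 0.00161). Of the 10 genes, Plin2 was the one called under all 15 alternatives tried, the test against a 1.5-fold change included, with log2 fold changes from 0.96 to 1.35.

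Plin3 encodes perilipin 3, also known as TIP47, a coat protein that is cytosolic and moves onto newly formed droplets (ENSMUSG00000024197, chromosome 17, 56278962 to 56290511, minus strand). Its level was 43.1, 38.0 and 46.2 CPM in foamy libraries, against 15.3, 22.1 and 23.6 CPM in non-foamy libraries. The groups did not overlap, and the gene was called with less margin than Plin2 (log2 fold change 1.06, SE 0.27, edgeR adjusted p = 0.0456). That call was lost when any 1 library was left out: the log2 fold change was 1.06, 1.15 and 1.00 when a foamy replicate (1, 2 and 3 in turn) was left out and 0.89, 1.13 and 1.19 when a non-foamy one was, with edgeR adjusted p from 0.0547 to 0.167. It was also lost with total counts only (log2 fold change 0.80) and in the test against a 1.5-fold change (edgeR adjusted p = 0.253). Per length, Plin2 was the dominant perilipin of both populations. It made up 97.2 to 97.5% of the summed RPKM of the 5 perilipin genes in foamy and 96.0 to 97.9% in non-foamy libraries, and Plin3 made up 2.47 to 2.80% and 2.03 to 3.95%.

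Soat1 encodes ACAT1, the enzyme of the endoplasmic reticulum that turns free cholesterol into cholesteryl ester (ENSMUSG00000026600, chromosome 1, 156424525 to 156474331, minus strand). It stood at 789.9, 696 and 981 CPM in foamy libraries, against 463, 439.7 and 336 CPM in non-foamy libraries. Every foamy value exceeded every non-foamy value, and the mean was 823 ± 145 CPM against 413 ± 67.7 CPM, a 1.99-fold difference (log2 fold change 0.99, SE 0.20, edgeR adjusted p = 0.0140). Without foamy replicate 3 the call was lost (0.86, edgeR adjusted p = 0.0789), as it was without non-foamy replicate 2 (1.05, adjusted p = 0.0522) and when only total counts scaled the libraries (0.71, adjusted p = 0.0650). The test against a 1.5-fold change did not call it either (edgeR adjusted p = 0.171).

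Nceh1 encodes neutral cholesterol ester hydrolase 1, which splits the ester that ACAT1 makes (ENSMUSG00000027698, chromosome 3, 27182965 to 27284608, plus strand). Its level was 258, 323 and 348 CPM in foamy libraries, against 243, 169 and 161 CPM in non-foamy libraries. On this scale the groups did not overlap, but foamy replicate 1 and non-foamy replicate 1 lay close together. In RPKM, which has no TMM factor, the groups overlapped. There foamy replicate 1 stood at 42.7 RPKM and non-foamy replicate 1 at 54.7 RPKM. The gene did not pass the test (fitted log2 fold change 0.70, 95% interval 0.23 to 1.16, edgeR adjusted p = 0.0877). It was called by DESeq2 (0.70, adjusted p = 0.0290), without a filter on low counts (0.82) and without non-foamy replicate 1 (0.90, edgeR adjusted p = 0.0234).

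**Figure D2:**
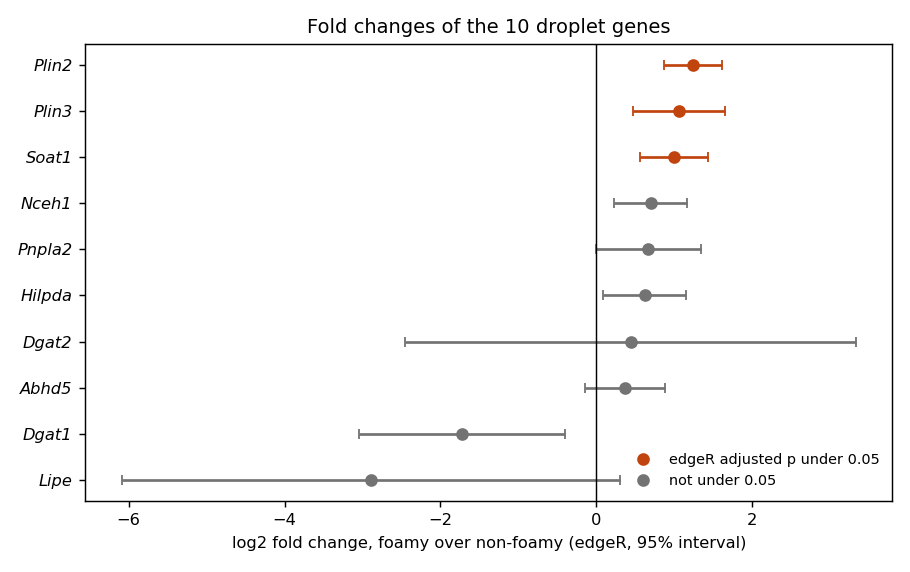
Log2 fold change of each gene, foamy over non-foamy, from the edgeR fit with its 95% interval; orange points passed an adjusted p of 0.05 and grey points did not. Plin2, Plin3 and Soat1 lie at 1.24, 1.06 and 0.99, and the widest intervals are those of Lipe (-6.09 to 0.30) and Dgat2 (-2.45 to 3.33).

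RefSeq promoters (GRCm38.p6, from 250 bases before to 50 bases after the transcription start) were matched for 8 of the 10 genes, all but Dgat1 and Dgat2. Those of the 3 genes that passed the test and of Nceh1 are given, so that their shared and unshared motifs can be read. Nceh1 was the other gene whose groups did not overlap in TMM-scaled CPM. Each promoter is written 5' to 3' on the strand of the gene. Capitals mark matches, on either strand, to the E-box CACGTG (which contains the hypoxia response core ACGTG), AP-1 (TGANTCA), the nuclear receptor element AGGTCA (alone or repeated after 1 base or 4 bases, as PPAR and LXR factors use it) or the sterol element TCACNCCAC.
Plin2, chr4:86670010-86670309, minus strand: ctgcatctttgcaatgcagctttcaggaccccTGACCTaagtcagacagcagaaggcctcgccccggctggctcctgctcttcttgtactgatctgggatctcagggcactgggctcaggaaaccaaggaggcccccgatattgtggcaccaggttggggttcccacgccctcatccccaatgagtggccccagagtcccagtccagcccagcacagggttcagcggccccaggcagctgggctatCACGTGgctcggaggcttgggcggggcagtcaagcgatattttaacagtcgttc
Plin3, chr17:56290462-56290761, minus strand: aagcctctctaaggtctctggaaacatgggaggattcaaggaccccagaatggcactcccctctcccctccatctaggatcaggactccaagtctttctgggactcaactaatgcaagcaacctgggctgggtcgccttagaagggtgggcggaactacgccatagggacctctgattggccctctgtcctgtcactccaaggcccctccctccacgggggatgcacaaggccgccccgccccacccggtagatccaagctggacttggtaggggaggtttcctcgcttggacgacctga
Soat1, chr1:156474279-156474578, minus strand: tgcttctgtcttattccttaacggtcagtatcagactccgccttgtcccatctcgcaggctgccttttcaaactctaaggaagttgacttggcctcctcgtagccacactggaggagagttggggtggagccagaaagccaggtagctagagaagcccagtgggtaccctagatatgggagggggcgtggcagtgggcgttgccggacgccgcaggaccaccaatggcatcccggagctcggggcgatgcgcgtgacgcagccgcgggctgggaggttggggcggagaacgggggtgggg
Nceh1, chr3:27182754-27183053, plus strand: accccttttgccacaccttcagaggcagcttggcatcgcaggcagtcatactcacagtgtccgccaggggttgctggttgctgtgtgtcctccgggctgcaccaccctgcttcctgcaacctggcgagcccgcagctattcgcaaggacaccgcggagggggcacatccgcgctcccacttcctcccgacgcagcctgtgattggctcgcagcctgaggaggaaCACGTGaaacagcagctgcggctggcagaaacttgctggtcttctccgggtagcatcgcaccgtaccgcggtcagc
The Plin2 promoter held CACGTG across its start, at positions -4 to 2, and AGGTCA in reverse at positions -218 to -213, counted from the start as 1. The Nceh1 promoter held CACGTG at positions -26 to -21. The RefSeq promoter of Lipe, whose start lies 2723 bases from that in the deposited tables, held the same E-box at positions -155 to -150. That motif was in 3 of the 8 promoters and in 7.15% of all 32851 promoters of the same length. AGGTCA was in those of Plin2 and Abhd5, against 16.3% of all promoters. The AP-1 letters were in that of Hilpda, at positions 11 to 17, against 7.81%. Neither the repeats of AGGTCA nor the sterol element were in any of the 8, and they were in 0.0396% (1-base spacer), 0.0152% (4-base spacer) and 1.24% of all promoters. Plin3, Soat1 and Pnpla2 held none of these letters in this window. ACGTG outside the E-box was in none of the 8.

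Dgat1 and Dgat2 encode the unrelated enzymes that add the last acyl chain to make triglyceride, and both were measured at low levels. Dgat1 (ENSMUSG00000022555, chromosome 15, 76502015 to 76511951, minus strand) had 59, 80 and 43 counts in foamy libraries, or 2.80, 4.46 and 2.32 CPM, against 223, 286 and 100 counts in non-foamy libraries, or 12.1, 15.7 and 3.94 CPM. Non-foamy replicates 1 and 2 were high, while non-foamy replicate 3 lay within the foamy range. The gene did not pass the edgeR test (log2 fold change -1.73, SE 0.60, 95% interval -3.05 to -0.40, adjusted p = 0.137). It was called lower by DESeq2 (-1.73, adjusted p = 0.0436) and by edgeR without non-foamy replicate 3 (-2.11, adjusted p = 0.0492). The summed level of 5 dendritic cell markers was also highest in non-foamy replicates 1 and 2: it was 0.332, 16.0 and 2.37 CPM in foamy replicates 1 to 3 and 186, 249.9 and 33.1 CPM in non-foamy replicates 1 to 3. In non-foamy libraries nearly all of it was Cd209a, a lectin gene (178, 249.1 and 32.2 CPM), while Flt3, Xcr1 and Zbtb46 did not exceed 5.09, 0.596 and 1.68 CPM in any library. Clec9a, the other marker, went the other way, with 0, 22 and 33 counts in foamy libraries and 0 in each non-foamy one. The sum thus followed 1 gene, and the part of these markers in the Dgat1 values was not tested.

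Dgat2 (ENSMUSG00000030747, chromosome 7, 99153663 to 99182713, minus strand) had 30, 22 and 4 counts in foamy libraries, against 5, 33 and 1 in non-foamy libraries. The groups overlapped, and the gene was not called (log2 fold change 0.44, 95% interval -2.45 to 3.33, edgeR adjusted p = 0.917). Left without non-foamy replicate 2 the fitted value was 2.62, and without non-foamy replicate 3 it was -0.12. Reads were amplified without molecular identifiers named in the protocols, so a few counts need not be as many independent molecules.

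Pnpla2 encodes ATGL, which starts the breakdown of droplet triglyceride (ENSMUSG00000025509, chromosome 7, 141455198 to 141460743, plus strand). It stood at 46.8, 43.5 and 25.2 CPM in foamy libraries, against 19.4, 24.0 and 29.4 CPM in non-foamy libraries. Foamy replicates 1 and 2 were above all others, and foamy replicate 3 lay within the non-foamy range. The gene did not pass the test (fitted log2 fold change 0.67, 95% interval -0.01 to 1.34, edgeR adjusted p = 0.275), nor under any of its 15 alternatives.

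Lipe encodes hormone-sensitive lipase (ENSMUSG00000003123, chromosome 7, 25379527 to 25398710, minus strand) and was close to absent from most libraries. It had 18, 0 and 3 counts in foamy replicates 1 to 3, against 4, 40 and 135 counts in non-foamy replicates 1 to 3. The 0 in foamy replicate 2 allows up to 3 counts, or 0.161 CPM of that library's total with no TMM factor, for counting error only. Non-foamy replicate 3 alone held most of the reads, the groups overlapped, and the gene did not pass the test (fitted log2 fold change -2.89, 95% interval -6.09 to 0.30, edgeR adjusted p = 0.325). Without non-foamy replicate 3 the fitted value was -1.80, and without foamy replicate 1 it was -4.88. The antisense gene 4732471J01Rik, which covers 5.84% of the exonic bases of Lipe, had 0 counts. The summed level of 5 fibroblast markers was 5.41, 2.73 and 167 CPM in foamy replicates 1 to 3 and 119, 8.15 and 305 CPM in non-foamy replicates 1 to 3. Most of it was Lum in foamy replicate 3 (132 CPM) and non-foamy replicate 1 (71.2 CPM), and Dcn in non-foamy replicate 3 (266 CPM). Pdgfra did not exceed 0.275 CPM in any library. The part of these markers in the Lipe values was not tested.

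Abhd5, also known as CGI-58, encodes the co-activator that ATGL needs for full activity (ENSMUSG00000032540, chromosome 9, 122351608 to 122381524, plus strand). Its level was 101, 62.6 and 71.9 CPM in foamy libraries, against 65.6, 56.4 and 60.8 CPM in non-foamy libraries. Foamy replicate 1 was high and the rest lay together, and the gene did not pass the test (fitted log2 fold change 0.37, 95% interval -0.14 to 0.88, edgeR adjusted p = 0.459). Of its exonic bases, 26.3% lie under the antisense gene A730085K08Rik, which held 6 counts over all 6 libraries; whether counting used strand is not given in the sources used here. Hilpda encodes a small droplet protein that inhibits ATGL and is induced by hypoxia through HIF factors (ENSMUSG00000043421, chromosome 6, 29272488 to 29275446, plus strand). It stood at 278, 373 and 229 CPM in foamy libraries, against 148, 248 and 176 CPM in non-foamy libraries. The groups overlapped through foamy replicate 3 and non-foamy replicate 2. The gene did not pass the test (fitted log2 fold change 0.62, 95% interval 0.09 to 1.15, edgeR adjusted p = 0.188), nor under any of its 15 alternatives. Of 10 tested genes among 12 other HIF targets, 0 were called by edgeR, DESeq2 or limma-voom. Over all genes tested edgeR called 5.41%, a share at which a list of 10 can hold 0. The untested Adm had 0 counts in foamy libraries and 6, 36 and 86 in non-foamy ones, and the untested Egln3 had at most 3 in any. The median log2 fold change of the 10 tested targets was -0.18, with 3 fitted above 0 and 7 below, against -0.04 over all genes tested. At an unadjusted p under 0.05 the counts by the 3 tools were 0, 1 and 1, with no share of all genes given here. The smallest p among them were those of Ndrg1, a stress-responsive gene (log2 fold change 0.79, edgeR adjusted p = 0.278), Kdm3a, a histone demethylase gene (-0.72, adjusted p = 0.444), and Pdk1, a kinase gene of pyruvate metabolism (-0.88, adjusted p = 0.485).

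Between genes, levels were compared as RPKM, the deposited CPM divided by gene length in kilobases. Plin2 was the most abundant of the 10 in both populations, at 657 ± 20.9 RPKM in foamy and 338 ± 64.4 RPKM in non-foamy libraries (SD, n = 3 each), which ranked 77 and 189 among the 11303 genes tested. Hilpda came next, at 244 ± 73.2 and 188 ± 46.6 RPKM, ranks 233 and 328. The cholesteryl ester enzymes followed. Soat1 stood at 76.2 ± 12.0 and 46.6 ± 10.4 RPKM, and Nceh1 at 53.8 ± 9.65 and 40.4 ± 12.5 RPKM. Abhd5 (19.6 and 18.5 RPKM), Plin3 (17.8 and 10.2 RPKM) and Pnpla2 (11.6 and 8.74 RPKM) formed the middle of the order. Dgat1 (0.962 and 3.85 RPKM), Dgat2 (0.387 and 0.343 RPKM) and Lipe (0.0654 and 0.598 RPKM) were at the foot. Neighbours whose ranges overlapped were Abhd5 with Plin3 and Dgat2 with Lipe in foamy libraries, and Soat1 with Nceh1, Plin3 with Pnpla2 and Lipe with Dgat2 in non-foamy libraries. All other neighbours were apart in all 3 libraries of the group.

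**Figure D3:**
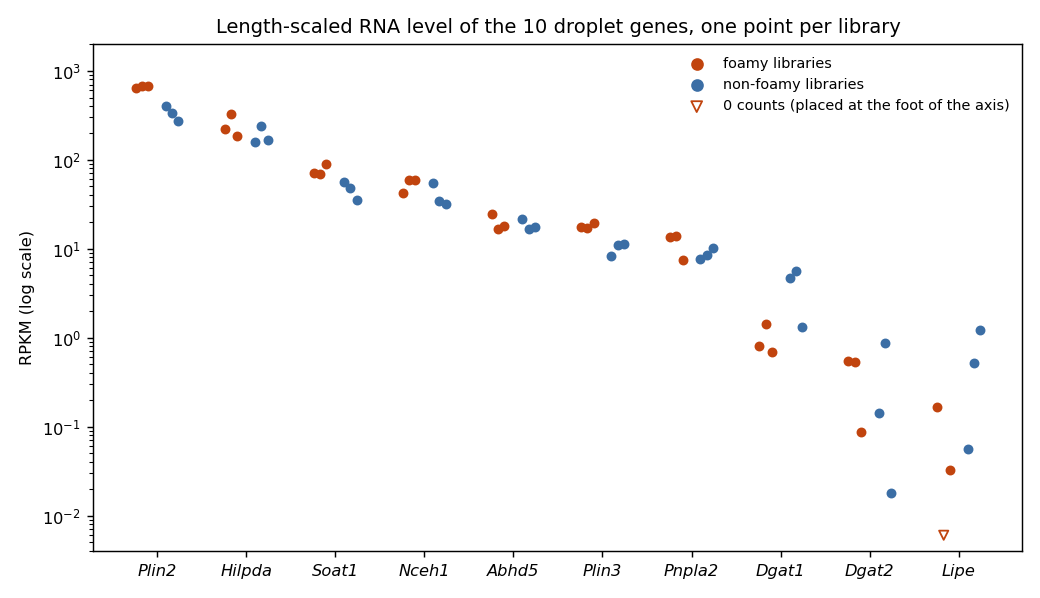
RPKM of each gene on a log axis, 1 point per library, genes ordered by the foamy mean. The genes run from Plin2 (mean 657 RPKM in foamy, 338 RPKM in non-foamy libraries) to Lipe (0.0654 and 0.598 RPKM), and the open triangle is the foamy library with 0 counts of Lipe.

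Ratios between genes of a pair were taken within each library, where they do not depend on how libraries are scaled. Soat1 exceeded Dgat1 in RPKM by 88.0, 48.7 and 132 times in foamy replicates 1 to 3, against 12.0, 8.71 and 26.6 times in non-foamy replicates 1 to 3. The groups did not overlap, with a difference of 2.56 in mean log2 ratio (exact permutation p = 0.10, two-sided as for all pairs, the smallest that 3 libraries against 3 can give, and 0.40 adjusted over the 6 pairs tested). Of the summed RPKM of Soat1, Soat2, Dgat1 and Dgat2, Soat1 made up 97.3 to 99.2% in foamy and 88.1 to 96.3% in non-foamy libraries. The ratio of Soat1 to Nceh1, enzymes of opposed action, was 1.64, 1.16 and 1.52 in foamy libraries, against 1.02, 1.39 and 1.12 in non-foamy libraries. These ranges overlapped (difference in mean log2 ratio 0.28, exact permutation p = 0.20).

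Plin2 exceeded Plin3 by 36.6, 39.5 and 34.7 times in foamy libraries, against 48.2, 30.6 and 24.3 times in non-foamy libraries. The foamy values lay inside the non-foamy range (difference 0.16, exact permutation p = 0.70). Pnpla2 to its co-activator Abhd5 was 0.553, 0.832 and 0.420 in foamy and 0.354, 0.510 and 0.580 in non-foamy libraries (difference 0.29, exact permutation p = 0.50). Pnpla2 to its inhibitor Hilpda was 0.0403 to 0.0615 in foamy and 0.0354 to 0.0610 in non-foamy libraries, nearly the same range (difference 0.01, exact permutation p = 0.90). Dgat1 to Dgat2 was 1.45 to 7.92 in foamy and 6.39 to 73.7 in non-foamy libraries (difference -2.99, exact permutation p = 0.20), and rests on as few as 1 count of Dgat2. The smallest adjusted p over the pairs was 0.40. A pair of Pnpla2 and Lipe was not computed, because Lipe had 0 counts in 1 library.

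**Figure D4:**
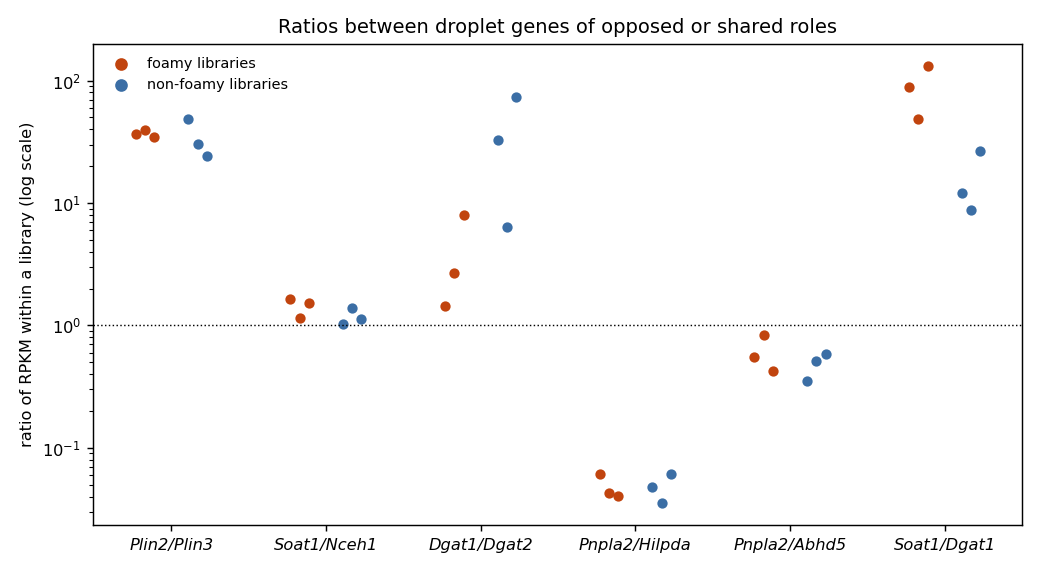
Ratio of RPKM between the 2 genes of each pair within a library, on a log axis, 1 point per library; the dotted line marks a ratio of 1. Soat1 to Dgat1 is the only pair of the 6 whose foamy values (48.7 to 132) do not overlap the non-foamy values (8.71 to 26.6).

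Of 41 other genes of droplet coats, droplet formation, esterification and lipolysis, 25 entered the test, and 2 were higher, 1 was lower and 22 were not called in foamy libraries, against a background of 5.41% called in either direction. Their median log2 fold change was 0.16, against -0.04 over all genes tested. The genes called were Lipa and Bscl2, which were higher, and G0s2, which was lower. Lipa encodes the lysosomal acid lipase, which splits cholesteryl ester of ingested lipoproteins in the lysosome. It stood at 2511, 1978 and 2854 CPM in foamy libraries, against 1077, 1144 and 1081 CPM in non-foamy ones (log2 fold change 1.15, SE 0.18, edgeR adjusted p = 0.00399). Bscl2 encodes seipin, a protein of the site where droplets bud from the endoplasmic reticulum. It stood at 136, 151 and 139.95 CPM in foamy libraries, against 44.9, 81.2 and 82.2 CPM in non-foamy ones (fold change of 1.04 on the log2 scale, SE 0.25, edgeR adjusted p = 0.0340). The Bscl2 call was lost when foamy replicate 1, 2 or 3 was left out (1.07, 1.00 and 1.06), without non-foamy replicate 2 (1.17) and when only total counts scaled the libraries (0.79), and in the test against a 1.5-fold change. Of its exonic bases, 6.75% overlap Gng3 on the other strand, which held 5 counts in all. G0s2 encodes another inhibitor of ATGL. It had 0, 0 and 1 counts in foamy libraries, against 17, 38 and 47 in non-foamy libraries. Counts pooled over each group gave a ratio of 0.0106, with an exact 95% interval of 0.000265 to 0.0603 for counting error only. The edgeR fit, which takes in the spread among libraries, gave G0s2 a log2 fold change of -6.09 (95% interval -9.26 to -2.93, adjusted p = 0.0331). Its call was lost when any 1 library was left out (edgeR adjusted p from 0.0546 to 0.161), with low-count genes kept in (0.0554), in the test against a 1.5-fold change (0.0577) and by limma-voom (adjusted p = 0.0606).

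By role, 1 of 10 tested genes of droplet formation was called higher and 0 lower, and 0 of 9 esterification genes were called in either direction by edgeR, DESeq2 or limma-voom, with medians of 0.25 and 0.04. Of those 9, 2 had an unadjusted edgeR p under 0.05, both with a log2 fold change above 0. The share of all genes at that threshold is not given here. Of the 5 lipase and inhibitor genes tested, 1 was higher and 1 lower, and 1 coat gene of 6, Cideb, entered the test and was not called. The most abundant genes that were not called were Aup1, a droplet protein of ubiquitin transfer, at 139 ± 53.8 CPM (foamy) and 124 ± 27.5 CPM (non-foamy), Rab18, a droplet-associated GTPase, at 118 ± 10.5 and 138 ± 33.7 CPM, the phospholipase gene Ddhd2 at 96.9 ± 4.88 and 100.6 ± 22.5 CPM, and Tmem159, whose product works with seipin, at 86.3 ± 15.6 and 74.2 ± 7.35 CPM. The 16 genes below the filter, among them Plin1, Plin4, Plin5, Cidea, Cidec and Soat2, did not exceed 5.23 CPM in any library.

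**Figure D5:**
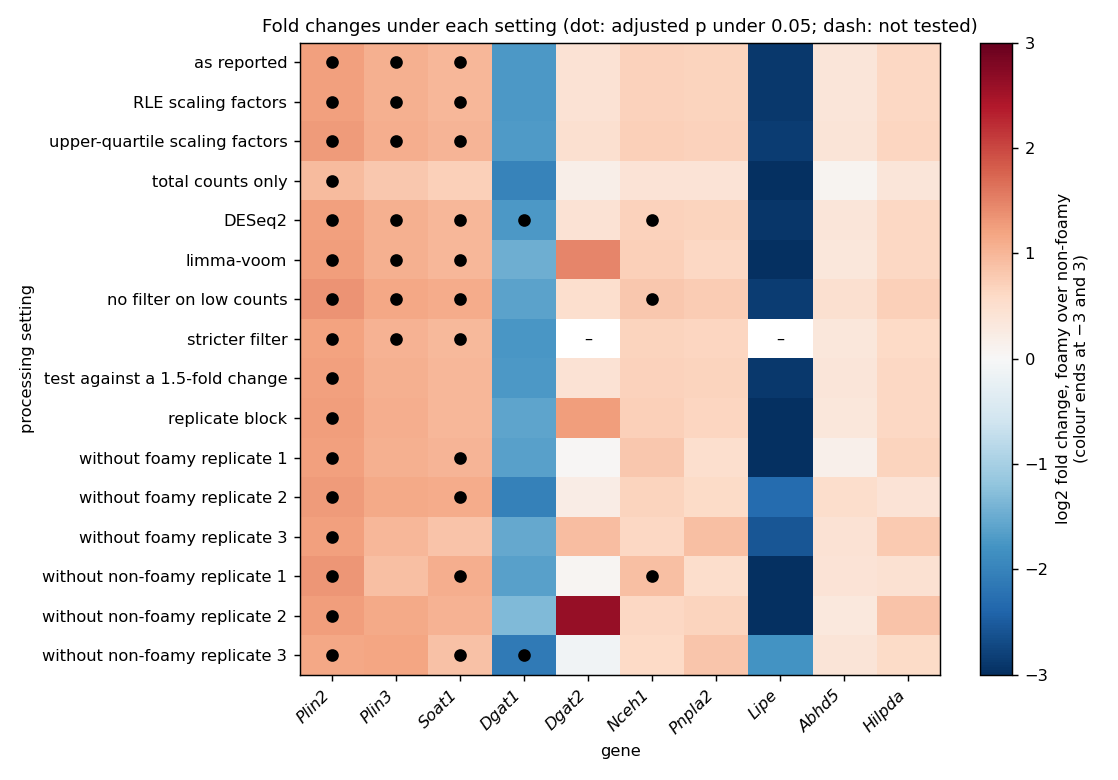
Log2 fold change of each gene, foamy over non-foamy, as colour, for the reported fit and each of 15 alternatives down the page; a dot marks an adjusted p under 0.05 and a dash a gene that did not enter the test. Plin2 has a dot in every line, Soat1 in 10 and Plin3 in 6 of the 15 alternatives, Nceh1 in 3 and Dgat1 in 2.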

How the data were processed

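RNA was made into cDNA with the SMARTer Ultra Low kit and read as single 50-base reads, per the labels' protocols. Tools named by the submitters' processing notes are STAR (2.0.4b), featureCounts (1.4.5) and Subread, with build GRCm38. The annotation release and the strand setting were not given in any source used here. The deposited counts are whole, unscaled reads per gene. The deposited CPM are counts scaled to a common total of gene counts per library, and the deposited RPKM are those CPM per kilobase of the tabulated exon length; both relations held on every gene to 1e-06. Symbols were found for 97.3% of IDs through a reference table of gene names.

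Counts were tested with edgeR 4.0.16 in R 4.3.3 (filterByExpr, TMM, robust quasi-likelihood F-test; Benjamini-Hochberg adjustment over all 11303 genes tested, threshold 0.05; SE as log2 fold change over the root of F). Ratios used exact permutation tests (scipy 1.17.1). Alternatives were RLE and upper-quartile factors, total counts only, DESeq2 1.42.0, limma-voom (limma 3.58.1), no filter, at least 10 counts in 3 libraries with a mean of 5 CPM, a 1.5-fold threshold, a replicate block, and each library left out. On simulated counts the fit called 17.0% of 2-fold, 62.0% of 4-fold and 79.2% of 8-fold changes, and 5.65% of its calls were false. A gene that did not pass can thus still differ by 2-fold or, less often, by 4-fold or 8-fold. Within a group, every pair of libraries differed by more than sampling noise (chi-square at least 54.5 times its degrees of freedom). All 10 genes are named; of the related, hypoxia and digestion lists, the called genes of the first, its 4 most abundant others and the 3 smallest p of the others are. The members and lists were chosen with earlier results of these data known. Protein sequences were not analysed here.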

Additional observations from a re-analysis of the deposited data

How the results depend on the processing

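Of 148 refits of the 10 genes, 128 kept their direction and side of the threshold, 14 lost a call, 5 gained one and 1 turned the sign, that of Dgat2 without non-foamy replicate 3 (-0.12; its values with a library left out ran to 2.62). With 3 of the 10 called as reported, 5 were by DESeq2 and 1 with total counts only, against a 1.5-fold change or with the replicate block; 1 to 3 were called with a library left out. Of all genes, 611 were called, against 1173 by DESeq2, 276 against a 1.5-fold change, 391 with the replicate block and 271 to 579 with a library left out. Of the related droplet genes, 3 were called, against 1 for a 1.5-fold change, 1 with the block and 1 to 3 with a library left out. Same-numbered libraries did not deviate together (correlations -0.07, -0.02 and -0.03, and none correlated best with its own number), so the block is given here only. The difference in log2 ratio of Pnpla2 to Hilpda, 0.01, was -0.019 with a pseudocount of 1 RPKM, -0.18 without foamy replicate 1 and -0.19 to 0.20 over all libraries left out, the lowest without non-foamy replicate 2. That of Plin2 to Plin3, 0.16, was -0.058 without non-foamy replicate 3 and at most 0.44 with another library left out. Why these changed was not tested. Dgat2 and Lipe did not pass the stricter filter, so it gives no value for them. Dgat1, Dgat2, Lipe and G0s2 had under 300 counts in every library, and what part depth has in the spread of their values was not tested.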
